A study of Mus musculus with 8 samples.

Results

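Rassf6, Acbd7, Tunar, Pcp4, Smpx, Rbm24, Slitrk6, Mtmr11, Ppp1r17 and Lrtm2 are 10 of the 18193 genes on the arrays, chosen by their array signal, which stood higher in the apical than in the basal part of the mouse organ of Corti in controls and in Dicer1 conditional knockout (cKO) animals alike. Those apex-to-base values are therefore given as a description, and no test of them is read as a result. All 10 had at least 1 probe set that passed the filter on low signal, and none had an array below the filter in the probe set used.

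The organ of Corti is the strip of hair cells and supporting cells along the coiled cochlea. Position sets the pitch it answers to, low at the apex and high at the base, and hair cells differ along it in their channels, calcium buffers and bundle height. Dicer1 encodes the ribonuclease that cuts precursors into mature microRNAs, and Atoh1 is a transcription factor of developing hair cells.

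RNA came from 8 dissected pieces at postnatal day 16, in 4 groups of 2: control apex, control base, cKO apex and cKO base. A cKO mouse carried the Atoh1-cre transgene Tg(Atoh1-cre)1Bfri and 2 floxed Dicer1 alleles (Dicer1tm1Bdh, flox/flox). A control was a littermate with the same transgene and 1 floxed allele (flox/wt), so that Cre and a floxed allele were present in every sample. Each replicate pooled that region of the organ from both cochleae of 1 mouse. Atoh1-cre acts mainly in the hair cell lineage, whereas the array read RNA of every cell in the dissected piece, and fewer cells of a type and less RNA per cell cannot be told apart. Same-numbered apical and basal samples of a genotype were taken to be 1 mouse, which the labels do not state outright.

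Values are log2 of the Affymetrix MAS5 signal (1 unit is a doubling), with n = 2 arrays a group. A step is the apical minus the basal value, and ± marks the SE of the limma fit unless SD is named. Dicer1 itself read 9.57 and 9.19 in control apex, 9.36 and 9.04 in control base, 9.41 and 9.17 in cKO apex, and 9.30 and 9.06 in cKO base. The genotypes overlapped in both regions; whether its probes lie in the floxed part was not tested. Hair cell markers such as Myo7a and Otof were measured on every array, but Slc26a5 and Atoh1 fell below the filter. Control mouse 1 stood apart. Its basal array held little stria vascularis RNA (the pigment cell gene Dct read 5.96, against 13.65 to 13.91 on the other basal arrays), while its apical array read 11.87 for Dct, against 6.19 to 9.36 on the other apical arrays. The Dct step was thus 5.91 in this mouse and -7.69 to -4.28 in the other 3. Its 2 arrays read 12.39 and 12.54 for Xist, against at most 8.23 elsewhere.

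For orientation in sequence, the promoters are shown of Acbd7, Pcp4 and Smpx, the members with the smallest p for the genotype difference in the base described below. Each run is the 250 bases upstream of a RefSeq start in GRCm38.p6, read 5′ to 3′ on the + strand. They lie at chr2:3335918-3336167, chr16:96467356-96467605 and chrX:157698723-157698972 in that order. The Acbd7 run lies inside the gene's own interval (chr2:3332814-3340998), so it precedes a start within the gene. The Pcp4 and Smpx runs end just before their genes begin. Capitals mark any match, on either strand, to CAGNTG (an E-box of the kind ATOH1 binds), ATTAAT (a POU4 core), AAATC (a GFI1 core) or CCAAT (a common promoter element). The TATA box string, TATAAA, was searched too and had no match in them.
Acbd7: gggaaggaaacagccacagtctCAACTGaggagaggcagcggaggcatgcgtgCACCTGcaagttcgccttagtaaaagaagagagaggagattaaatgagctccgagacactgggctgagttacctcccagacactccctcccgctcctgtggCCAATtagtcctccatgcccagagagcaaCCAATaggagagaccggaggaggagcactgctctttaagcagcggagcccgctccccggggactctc
Pcp4: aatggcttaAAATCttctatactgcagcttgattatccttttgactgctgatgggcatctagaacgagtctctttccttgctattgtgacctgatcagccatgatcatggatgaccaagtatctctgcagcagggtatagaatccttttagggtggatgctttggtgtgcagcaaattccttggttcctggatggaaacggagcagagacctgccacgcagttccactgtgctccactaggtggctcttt
Smpx: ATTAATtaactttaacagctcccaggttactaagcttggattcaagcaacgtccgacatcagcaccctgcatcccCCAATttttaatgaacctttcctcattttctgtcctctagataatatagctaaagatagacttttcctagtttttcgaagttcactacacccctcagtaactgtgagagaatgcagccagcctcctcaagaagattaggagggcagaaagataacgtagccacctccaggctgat
The Acbd7 run holds 2 E-box strings and 2 CCAAT strings, the Pcp4 run 1 AAATC string, and the Smpx run 1 ATTAAT and 1 CCAAT string. Of 32851 mouse promoter windows of this length, 44.8% held CAGNTG, 4.4% ATTAAT, 32.7% AAATC, 33.8% CCAAT and 12.4% TATAAA. Among the 9 members with an entry, 5 held CAGNTG (Rassf6, Acbd7, Tunar, Rbm24 and Lrtm2), 3 held AAATC, 2 held CCAAT, 1 held ATTAAT and 0 held TATAAA. A member was counted if any of its windows held the string, whereas the shares over all promoters are per window. These are letter matches only. Ppp1r17 is named without a sequence.

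Every member separated the 4 apical from the 4 basal arrays without overlap, as the choice required; 846 of the 13221 genes tested (6.4%) did so. The members are far from the weakest of these: all 10 had a mean step of at least 1, as had 153 of the 846. The gap between the lowest apical and the highest basal array ran from 1.53 in Tunar and 1.34 in Rassf6 to 0.65 in Mtmr11 and 0.31 in Pcp4. Around Pcp4, which has the smallest gap of the 10, lie Slc20a1 just above (0.32) and Rgs9bp just below (0.31), neither of them a member.

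**Figure D1:**
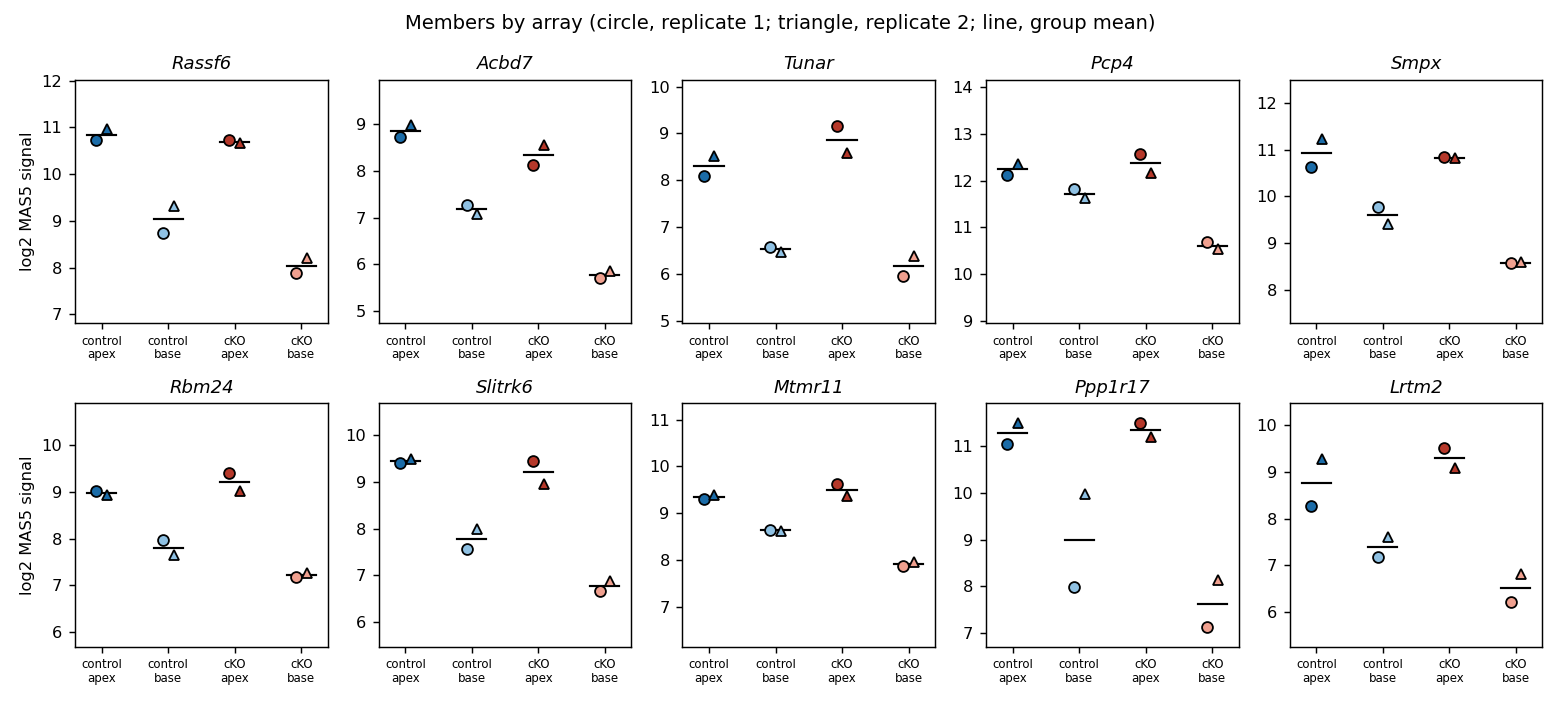
Log2 MAS5 signal of the 10 members on each of the 8 arrays, a panel a gene, with controls and cKO side by side and lines at the group means of 2 arrays. In all 10 panels the apical points lie above the basal ones, and in 9 the cKO basal points lie below the control basal points; Ppp1r17 overlaps there.

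The signalling members come first. Rassf6 (chr5:90603076-90640734, GRCm38.p6), a Ras-association domain protein that binds kinases of the Hippo pathway, read 10.72 and 10.96 in control apex, 8.74 and 9.32 in control base, 10.72 and 10.66 in cKO apex, and 7.88 and 8.21 in cKO base. The genotypes overlapped in the apex, while the cKO base lay below the control base on both arrays. In linear signal the apical arrays gave 1618 to 1989, the control basal arrays 426 and 641, and the cKO basal arrays 235 and 296.

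Pcp4 (chr16:96467606-96525793) encodes a small peptide that binds calmodulin and tunes its exchange of calcium. Its signals were 12.13 and 12.34 in control apex, 11.81 and 11.62 in control base, 12.58 and 12.16 in cKO apex, and 10.68 and 10.53 in cKO base. Controls had a shallow step here, the smallest of the 10 members, and the cKO basal arrays lay about 1 unit under the control basal ones.

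Ppp1r17 (chr6:56017497-56032689), a protein phosphatase inhibitor known from cerebellar Purkinje cells, gave 11.04 and 11.50 in control apex and 11.50 and 11.19 in cKO apex. The basal regions were uneven, at 7.99 and 9.98 in controls and 7.12 and 8.14 in cKO. The 2 control basal arrays differ by 1.99, the widest replicate gap of any member, and the upper cKO basal array sits inside the control range.

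Mtmr11 (chr3:96161949-96171718), a myotubularin-related protein that lacks the catalytic residues of the family, read 9.30 and 9.40 in control apex, 8.65 and 8.63 in control base, 9.62 and 9.38 in cKO apex, and 7.87 and 7.95 in cKO base. Its second probe set also put every apical array above every basal one. There the control values were 8.45 and 8.47 over 7.83 and 7.90, and the cKO values 8.07 and 8.22 over 7.39 and 7.44. The probe sets part over genotype: the cKO step exceeded the control step in both, at 1.59 against 0.71 in the first and 0.73 against 0.60 in the second, but in the second the cKO apex was lower too, by a difference of -0.31.

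Of the RNA members, Rbm24 (chr13:46418102-46431099) encodes a splicing regulator of striated muscle, which in mouse hair cells also acts on the tip-link gene Cdh23. It read 9.01 and 8.93 in control apex, 7.96 and 7.65 in control base, 9.40 and 9.03 in cKO apex, and 7.18 and 7.27 in cKO base. Both cKO apical arrays were above and both cKO basal arrays below their controls. Another 4 probe sets of Rbm24 were dimmer, of which 1 passed the filter, with a step of 1.01 in controls and 1.30 in cKO and a basal genotype difference of -0.13.

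Tunar (chr12:105336594-105383932), a long non-coding RNA described in mouse embryonic stem cells, read 8.09 and 8.51 in control apex, 6.57 and 6.48 in control base, 9.15 and 8.59 in cKO apex, and 5.95 and 6.39 in cKO base. As in Rbm24, the cKO arrays lay outside the controls on both sides, though the closest values (8.51 and 8.59, 6.48 and 6.39) almost meet. A second probe set below the filter gave steps of 3.79 in controls and 2.71 in cKO, the opposite order, with 1 control basal array at -0.16.

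The remaining 4 members are Slitrk6, Lrtm2, Smpx and Acbd7. Slitrk6 (chr14:110747338-110755204), a leucine-rich repeat membrane protein needed for inner ear innervation in mice, read 9.39 and 9.49 in control apex, 7.55 and 7.99 in control base, 9.44 and 8.96 in cKO apex, and 6.66 and 6.88 in cKO base. Lrtm2 (chr6:119315133-119332270), another leucine-rich repeat transmembrane protein, read 8.26 and 9.28 in control apex, 7.18 and 7.60 in control base, 9.51 and 9.08 in cKO apex, and 6.22 and 6.81 in cKO base. In both genes the apical genotypes overlapped and the cKO base lay below the control base.

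Smpx (chrX:157698973-157752591) encodes a small muscle protein that is mutated in an X-linked human deafness. Its arrays gave 10.62 and 11.23 in control apex, 9.78 and 9.41 in control base, 10.84 and 10.81 in cKO apex, and 8.57 and 8.60 in cKO base. The cKO apical arrays sat within the control range and the basal ones below it. Acbd7 (chr2:3332814-3340998), of a family that binds acyl-CoA esters, read 8.72 and 8.99 in control apex, 7.28 and 7.07 in control base, 8.12 and 8.55 in cKO apex, and 5.71 and 5.86 in cKO base. Acbd7 was the only member whose cKO values lay below the controls in both regions.

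The size of the step was then compared between genotypes. Averaged over the mice of a genotype, it was 3.50-fold in controls and 6.26-fold in cKO for Rassf6, 1.43-fold and 3.39-fold for Pcp4, and 2.51-fold and 4.74-fold for Smpx. The widest was that of Ppp1r17, at 4.87-fold and 13.2-fold. Over the 10 members the median step was 1.53 (0.52 to 2.28) in controls and 2.49 (1.59 to 3.72) in cKO, against medians of 0.54 and 0.59 over the 846 genes that separate the regions and 0.02 in both over all genes tested.

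All 10 members had a larger step in both cKO mice than in either control mouse. Such an order held for 14.5% of all genes and for 177 of the 846 (20.9%). The mice of a genotype were not alike: Tunar stepped by 1.53 and 2.04 in the control mice and by 3.20 and 2.20 in the cKO mice, and Ppp1r17 by 3.05 and 1.52 against 4.38 and 3.05. The latter's margin is narrow, since the upper control and the lower cKO value both round to 3.05. Smpx stepped by 0.84 and 1.82 and then by 2.27 and 2.22.

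**Figure D2:**
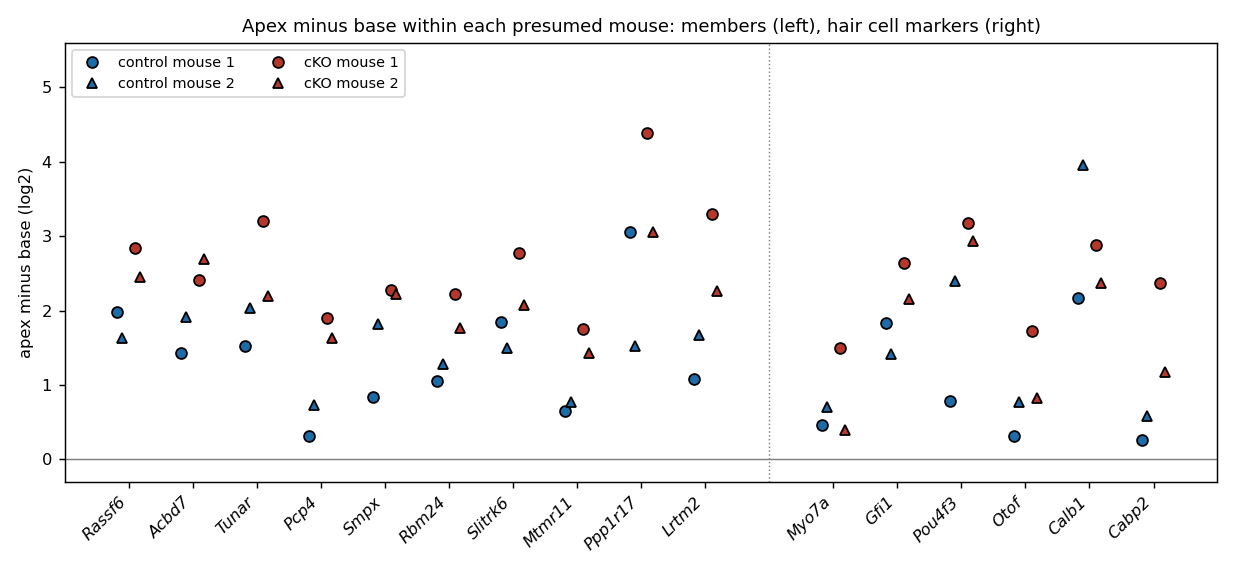
Apex minus base step (log2) of each member and of hair cell markers in each of the 4 presumed mice. For every member the 2 cKO points lie above the 2 control points, as they do for 4 of the 6 markers drawn: Gfi1 (1.83 and 1.41 in controls, 2.65 and 2.16 in cKO), Pou4f3 (0.79 and 2.40, 3.18 and 2.93), Otof (0.31 and 0.77, 1.72 and 0.83) and Cabp2 (0.26 and 0.58, 2.37 and 1.18). Myo7a (0.47 and 0.71, 1.49 and 0.39) and Calb1 (2.16 and 3.96, 2.88 and 2.37) overlap.

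No difference in step passed the test. In limma the step was larger in cKO by 1.24 ± 0.26 for Pcp4, 1.43 ± 0.87 for Ppp1r17, 1.40 ± 0.55 for Lrtm2 and 0.76 ± 0.36 for Slitrk6, with adjusted p = 1.00 for all 10 members (interaction term, Benjamini-Hochberg over all genes). Mtmr11, with one of the smaller errors, differed by 0.88 ± 0.26. The cKO step was the larger one for 50.5% of all genes and 60.8% of the 846. The step difference was called for 0 of 13221 genes; 149 had an unadjusted p under 0.05, 76 of them upward (0.575%), 7 of which were members. The count over members is no independent evidence of a larger cKO step: of the 9 genes called higher in the cKO apex than in the cKO base (0.0681% of those tested) 8 were members, so that a large cKO step favoured a gene's choice. The other of the 9 was AI593442, with a cKO step of 1.84 ± 0.21. With the replicate number as a fixed block 0 genes were called in either direction for the cKO step, and as a random block 81, against 11 without it. Ppp1r17 hung on single arrays, with a step difference of 2.43 without control base replicate 1 and 0.44 without replicate 2.

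The genotypes were then compared within the base. All 10 members read lower in the cKO base than in the control base, where 50.2% of all genes and 54.4% of the 846 were lower. Their median difference was -0.99 (-1.39 to -0.35), against -0.03 over the 846 genes and 0.00 over all genes. In 9 of the 10 both cKO arrays lay below both control arrays, an order that held for 15.6% of all genes and 18.8% of the 846.

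Acbd7 differed most, at -1.39 ± 0.25, followed by Ppp1r17 at -1.35 ± 0.61 and Pcp4 at -1.11 ± 0.18. Smpx (-1.01 ± 0.24), Slitrk6 (-0.999 ± 0.25) and Rassf6 (-0.99 ± 0.24) lay within 1 SE of each other. Tunar differed least, at -0.35 ± 0.30. None of the 10 passed (limma, adjusted p = 1.00 for each; 0 of 13221 genes called, 413 with an unadjusted p under 0.05, of which 196 were lower (1.48%), 7 of them members). Like the step, these differences share the cKO basal arrays with the values that chose the genes.

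Leaving out control base replicate 1, the array poor in stria RNA, moved the median to -1.05 and left all 10 members lower in cKO. Ppp1r17 depended on which control array was used, at -2.35 without replicate 1 and -0.36 without replicate 2. Smpx lies on the X chromosome, and without control mouse 1 it read -0.83.

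In the apex the members scattered around 0. Of the 10, 6 were higher and 4 lower in cKO, with a median of 0.11, against 50.1% of genes higher and a median of 0.00 over all genes. Tunar and Rbm24 had both cKO arrays above both controls, as had 15% of all genes, and Acbd7 had both below, as had 16.2%. The differences were 0.57 ± 0.30 for Tunar, 0.24 ± 0.22 for Rbm24 and -0.52 ± 0.25 for Acbd7, and none passed (limma, adjusted p = 1.00; 0 genes called, 290 with an unadjusted p under 0.05). Averaged over both regions of each mouse, 9 of 10 members were lower in cKO, against 50.3% of all genes. Their median was -0.52, against 0.02 over the 846 genes, and again none passed (limma, adjusted p = 1.00). This average contains the basal difference, and so shares the cKO basal arrays with the values that chose the genes.

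**Figure D3:**
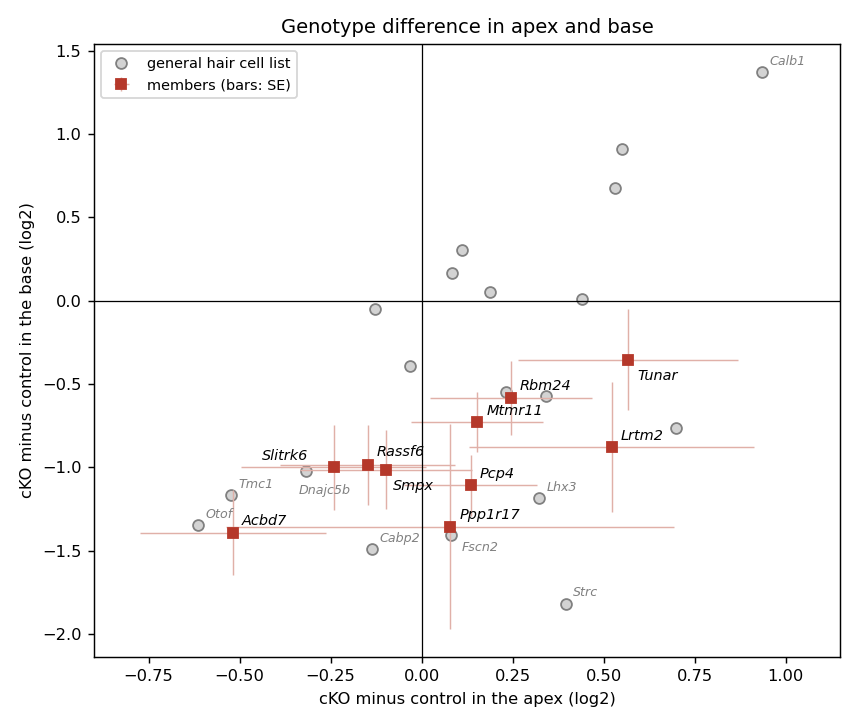
Genotype difference (cKO minus control, log2) in the base against that in the apex, for the members (squares, bars give the SE) and 19 hair cell genes (circles). All 10 squares lie below 0 on the vertical axis and on both sides of 0 on the horizontal one; the circles run from -1.82 (Strc) to 1.37 (Calb1) in the base.

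The members were set beside general hair cell genes. Of a list of 26, 19 were tested, and 8 of these (Gfi1, Lhx3, Pcdh15, Cabp2, Calb1, Strc, Fscn2 and Rasd2) also separated the 4 apical from the 4 basal arrays. Over the 19 the median step was 0.59 in controls and 1.30 in cKO, about 1 unit under the members in each genotype. The members were chosen for their step and the list was not, so this gap follows largely from the choice. The list's median basal genotype difference was -0.55, with 12 lower and 7 higher. For 8 of the 19 both cKO basal arrays were under both controls, and for 9 of the 19 the step was larger in both cKO mice. Among the 8 that separated the regions, as all members do, 5 had the first order and 5 the second.

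Strc, which links stereocilia and attaches them to the tectorial membrane, had steps of 1.85 in controls and 4.06 in cKO and a basal difference of -1.82 ± 0.52, the lowest of the 19. The synaptic vesicle protein gene Otof read -1.35 ± 0.32 in the base and the calcium sensor Cabp2 -1.49 ± 0.30. The calcium buffer Calb1 (1.37 ± 0.57) and Rasd2 (0.68 ± 0.35) lay the other way. None of these passed in the genotype comparison (adjusted p = 1.00 in limma). Outside the list, the supporting cell factor Sox2 stepped by 0.84 and 1.67 in the control mice and 1.45 and 1.52 in the cKO mice. The tectorial membrane gene Tectb stepped by 6.80 and 5.51 and by 6.90 and 4.77. It does not stand for its list: of 8 tectorial membrane genes tested, 4 stepped up and 4 down in each genotype. Their median step was -0.19 in controls and 0.004 in cKO.

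Set against the mean of the 19 hair cell genes on each array, a comparison added after seeing the data, the members' steps were smaller. Their median became 0.62 in controls, with 8 of 10 above 0, and 0.98 in cKO, with 10 of 10 above 0. On that scale 3 of the 10, Rassf6, Tunar and Ppp1r17, still had all 4 apical arrays above the 4 basal ones, and the other 7 did not. Pcp4 (-0.39) and Mtmr11 (-0.20) stepped less than the hair cell mean in controls. The median basal difference became -0.56, with Tunar at 0.08, and the median step difference 0.30, positive for all 10; the hair cell mean itself differed by -0.44 in the base and by 0.60 in step. Whether fewer basal hair cells account for any part of these values, shared with the hair cell mean or not, was not tested.

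Other cell types were read on the same arrays, as mean log2 relative to the 4 apical arrays. The members stood at -1.58 and -1.36 in control base and -2.55 and -2.27 in cKO base, and the hair cell list at -0.99, -0.98, -1.55 and -1.29. Supporting cell genes (17 tested) stood at -0.26, -0.39, -0.53 and -0.41. Genes of outer hair cells (6 tested) gave -1.28, -0.69, -1.93 and -1.26, and those of inner hair cells and their synapses (10 tested) 0.02, -0.60, -0.74 and -0.71.

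Some members are also muscle or neuronal genes, so those lists were read too. Skeletal muscle genes (6 of 14 tested) stood at 0.01, -1.05, 0.02 and -0.21, and neuronal genes (14 tested) at 0.14, -0.88, -0.16 and -0.58 over the same 4 basal arrays. On the apical arrays these lists kept within -0.18 and 0.17. Stria genes (11 tested) stood at -1.04, 2.87, 2.86 and 2.52, and at 1.10 on the apical array of control mouse 1. From control base replicate 1, poor in stria RNA, to replicate 2, rich in it, 4 members read higher (Ppp1r17 by 1.99, Rassf6 by 0.59, Slitrk6 by 0.44 and Lrtm2 by 0.42) and 6 lower, among them Smpx (-0.37) and Rbm24 (-0.31). The part of muscle, neuronal or stria RNA in the members' values was not tested.

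**Figure D4:**
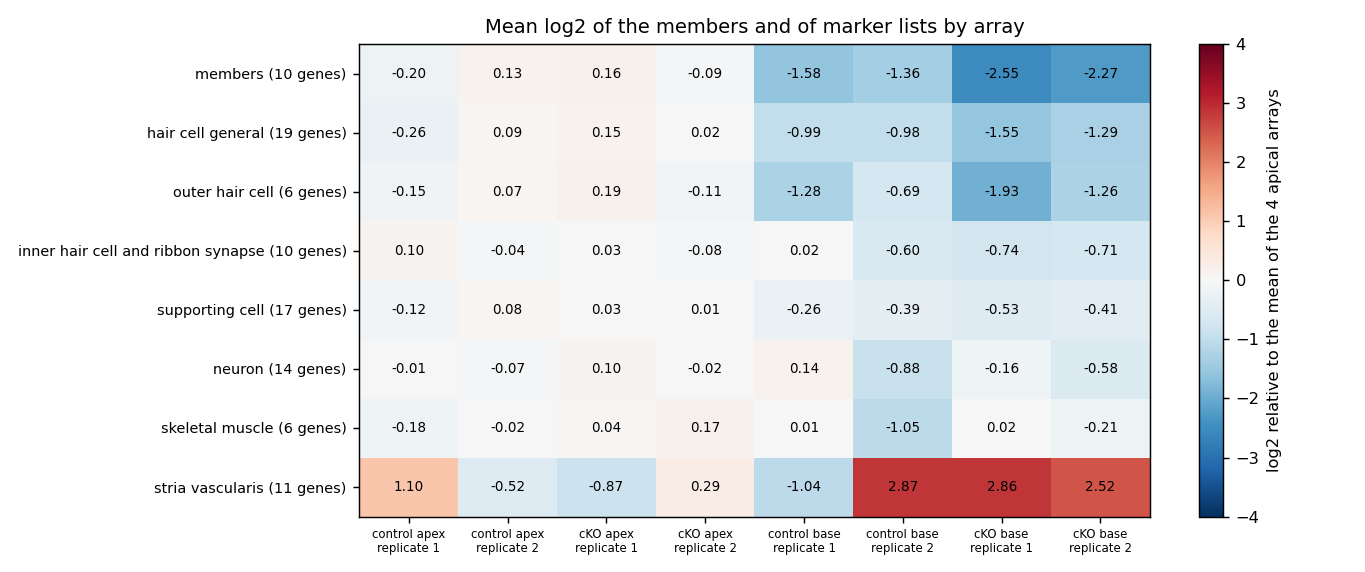
Mean log2 of the members and of marker lists on each of the 8 arrays, relative to the mean of the 4 apical arrays (numbers in the cells). The members give the lowest value of the lists on each of the 4 basal arrays, from -1.36 to -2.55, and stria genes are high on 3 of the 4. The members' low basal values follow largely from their choice, which the marker lists did not share.

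The genes that followed the members' mean profile most closely over the 8 arrays were Egfl6 (r = 0.987), Slc9a9 (0.985), Trim45 (0.978), AI593442 (0.977), Strc (0.976), Gfi1 (0.974), Atp11a (0.971), Zfp120 (0.970), Tuba8 (0.970) and Jag1 (0.969). These coefficients describe 8 points that fall into apical and basal regions, and they share the step that chose the members. Each member followed the other 9 with r between 0.943 (Pcp4) and 0.992 (Mtmr11). With group means taken off, r ran from -0.17 (Acbd7) to 0.93 (Lrtm2), and the closest other genes were Slc8b1 (0.998) and Anks1b (0.996).

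Replicates were compared within each group. In control apex 9 of 10 members read higher in replicate 2, in cKO base 9 of 10, in control base 4 of 10 and in cKO apex 1 of 10. The median shift was 0.26 in control apex, 0.19 in cKO base and -0.34 in cKO apex.

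Relatives of the members were read as families. Of 15 tested RASSF and Hippo kinase genes the median step was 0.06 in controls and -0.12 in cKO, with 0 called; Rassf9 stepped by 1.09 ± 0.42 and 1.76 ± 0.42. The 14 SLITRK genes and partners had medians of 0.40 and 0.24, again with 0 called, and Slitrk3 at 1.87 and 1.62. In limma 0 of the 14 had an unadjusted p under 0.05 upward in controls, and 2 did in cKO. Acyl-CoA-binding genes (6 tested) had medians of 0.07 and 0.01 and myotubularins (13 tested) -0.14 and -0.13, with 0 called in each. Among 12 phosphatase subunits and inhibitors, Ppp1r1b, an inhibitor of protein phosphatase 1, ran the opposite way to Ppp1r17: its step was -2.45 ± 0.37 in controls and -3.15 ± 0.37 in cKO, the latter called (limma, adjusted p = 0.0496), among 0.0151% of genes called lower. That call lies close to the threshold. The genes called lower for the cKO step went from 2 to 0 with no filter, quantile normalization or no trend, and to 33 with a random replicate block. Splicing factors of muscle and hair cells (12 tested) had medians of 0.15 and -0.02, with 0 called.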

How the data were processed

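RNA of 8 samples was hybridised to Affymetrix mouse arrays. The authors deposited MAS5 signal intensity, made with affy 1.26 per the submitters' processing notes; each array's 2% trimmed mean is 500. Labelling used 2 rounds of amplification per the labels' protocols, which can skew low signals. Probe sets were named through GEO's platform annotation: 34945 of 45101 had 1 gene, 932 several and 9160 none, and 64 were control probe sets. A gene took its probe set of highest mean log2 signal, and genes with a mean under the 40th percentile (signal 38.7, log2 5.27) were left out. Log2 intensity, with no pseudocount, was fitted in limma 3.58.1 (R 4.3.3) with 4 group means, an intensity trend and Benjamini-Hochberg adjustment over 13221 genes at 0.05. Differences over both regions used 1 mean per presumed mouse. The number of arrays limits the precision: in simulated data with 200 genes shifted in the cKO base, 70.3% of log2 shifts of 2 and 1.4% of shifts of 1 were recovered there, and 42.1% and 0% in the step difference. The simulation drew independent normal noise at each gene's residual SD, without region, mouse or stria effects. Its shares may therefore differ from those in the real arrays. The replicates are separate mice per the labels.

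The members, gene lists and tests were chosen with earlier results of these data known. Text names all members, the fixed hair cell markers, up to 4 genes of smallest p in each list described, and the most similar genes by r, 10 before and 2 of 10 after removing group means. Lhx3, which completes a count, Slc20a1 and Rgs9bp, the neighbours of Pcp4, and AI593442 were named after their values were seen. Alternatives covered the filter, pseudocount, normalization, probe set rule, trend, replicate block and leaving out samples; the hair cell reference and the omission of control mouse 1 were added after seeing the data. Promoters are RefSeq windows on GRCm38.p6.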

Additional observations from a re-analysis of the deposited data

Results flagged for a closer look

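Tunar and Rbm24 drew a closer look because the genotype effect ran opposite ways in the apex and the base: both cKO apical arrays were above and both cKO basal arrays below their controls. The difference between the 2 effects, equal to the difference in step, was 0.92 ± 0.43 for Tunar and 0.83 ± 0.31 for Rbm24. Tested as an interaction in limma it did not pass in either (adjusted p = 1.00). For Tunar the order depends on the probe set, as the mean of its 2 probe sets gives -0.08. For Rbm24 it does so too: the other probe set that passed the filter overlapped between genotypes in both regions. In the apex that probe set read 5.85 and 6.12 in cKO against 5.77 and 5.88 in controls. In the base it read 5.04 and 4.34 in cKO against 4.66 and 4.97 in controls.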

How the results depend on the processing

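With 2 arrays a group, counts of called genes depended heavily on single arrays, and the cause was not tested. Genes called for the step in controls went from 0 to 157 without control mouse 1, and from 0 to 551 over single omissions (551 without control base replicate 1). In cKO the count of 11 became 0 with no filter, quantile normalization, 75th percentile centring, no trend or a fixed replicate block, 6 with the mean of probe sets, 81 with a random replicate block and 449 without control mouse 1; single omissions gave 0 to 316, with 315 and 316 without either control basal array and 0 otherwise. Over both genotypes 157 became 98 with the mean of probe sets, 70 without trend, 255 and 527 with a fixed and a random replicate block, 1049 without control mouse 1, and 0 to 1518 over single omissions. Deviations of same-numbered apical and basal arrays correlated at 0.34 in controls and 0.07 in cKO.

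No trend gave 1 genotype call in the apex and 1 in the base; omitting single arrays gave 0 to 37 in the base (37 without control base replicate 2) and 0 to 9 over both regions. No alternative called any gene for the step difference. The members' median step was 2.26 in cKO with a pseudocount of 16, and 1.37 to 1.77 in controls over single omissions; the median basal difference ran from -1.07 to -0.74. Against the hair cell mean these medians were 0.62 (controls), 0.98 (cKO), 0.86 (both), -0.56 (base) and 0.30 (step difference).

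Some directions turned. Against the hair cell mean, Pcp4 and Mtmr11 stepped by -0.39 and -0.20 in controls and -0.066 and -0.056 over both genotypes, Tunar was 0.081 in the base, and in the apex Pcp4 was -0.032, Mtmr11 -0.014 and Ppp1r17 -0.088. The mean of probe sets gave Mtmr11 -0.081 in the apex, Tunar 0.41 in the base and Tunar -0.083 for the step difference. Over single omissions the apical difference ran from -0.40 to 0.20 for Smpx, -0.073 to 0.34 for Pcp4 and -0.15 to 0.31 for Ppp1r17 (also -0.15 without control mouse 1), and that over both regions from -0.54 to 0.18 for Lrtm2. The replicate block was not run for the genotype contrasts as a fixed term.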
